A study of Homo sapiens with 6 samples.

Results

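The proteasome genes were taken as every row of the expression table whose symbol is PSM followed by a letter from A to G and a number. This rule found 46 of the 30960 genes in the table: 7 alpha ring genes (PSMA), 10 beta ring genes (PSMB), 6 ATPase genes (PSMC), 14 non-ATPase regulatory genes (PSMD), 4 activator genes (PSME), the inhibitor gene PSMF1 and 4 genes of core assembly chaperones (PSMG). Of these, 43 had at least 1 CPM, the read count scaled to the size of the library, in at least 3 of the 6 libraries and were tested, and PSMB8, PSMB9 and PSMD5 were not. The libraries came from HEK293 cells, a human embryonic kidney line, 48 h after lipofection with 158 ng of plasmid per square centimetre. In the PKI group the plasmid encoded GFP fused to PKI1-24, a fragment named after the protein kinase inhibitor PKI, which blocks protein kinase A (PKA), and in the control group, inPKI, it encoded GFP fused to inPKI1-24. Each group held 3 libraries, called A, B and C, and all 6 came from transfected cells of the 1 line. The labels do not state separate cultures, so a p-value here covers the spread between libraries alone, and that spread may be technical. In bulk RNA, fewer cells with a transcript and less RNA per cell cannot be told apart.

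The proteasome is the main protease of the cytosol and nucleus and degrades proteins tagged with ubiquitin. Its core particle is a stack of rings: outer rings of alpha subunits that gate the entry, and inner rings of beta subunits, of which PSMB5, PSMB6 and PSMB7 carry the active sites. The regulatory particle docks on the core, receives ubiquitin-tagged proteins, removes the ubiquitin and feeds the unfolded chain inward with a ring of ATPases. Other caps, the PSME activators, open the core without ubiquitin. PKA is known to phosphorylate the regulatory subunit PSMD11 and to raise proteasome activity, and only RNA was measured here. The transcription factor NFE2L1 raises most proteasome genes together when proteasome activity is short.

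The reads recovered from the CPM came to 17244715 to 23589438 per library, and a tested proteasome gene had 193 to 7440 reads in a library, with 37 of the 43 at 1000 or more in every library. Of 8 genes fixed as markers of the line all were tested, with the intermediate filament gene VIM highest at 638 ± 12.5 CPM in inPKI (SD, n = 3). The summed level of 5 leukocyte markers was 1.16 to 1.68 CPM in inPKI and 1.36 to 1.92 CPM in PKI, with CD3E at 0 in all 6 libraries. That of 4 fibroblast markers, nearly all of it COL1A1, was 16.7 to 18.7 and 17.3 to 20.7 CPM, that of 2 keratinocyte markers 14.8 to 38.6 and 14.9 to 17.3 CPM, and that of 2 hepatocyte markers at most 0.312 CPM.

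No tested proteasome gene passed the threshold between PKI and inPKI, and the estimated changes were small and nearly all in the same direction. Of the 43 genes, 41 had a log2 change below 0 and 2, PSME4 and PSMD12, above 0, where the log2 change subtracts inPKI from PKI after taking log2(CPM + 1). Among all 14275 genes tested 52.6% were below 0. The median log2 change was -0.094 over the proteasome genes and -0.0074 over all genes tested, and the proteasome genes ranged from -0.22 (PSME1) to 0.15 (PSME4). The summed level of the 46 genes was 5135, 5136 and 4973 CPM across inPKI A to C, against 4915, 5073 and 4383 across PKI A to C. The PKI libraries were therefore lower in sum in A and C, and PKI B lay among the inPKI libraries. The CPM of all listed genes also summed to less in PKI C, 754299, than in the other libraries, 773801 to 785007. As a share of that sum the 46 genes held 0.655%, 0.658% and 0.643% across inPKI A to C. Across PKI A to C the share was 0.628%, 0.646% and 0.581%.

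By limma with Benjamini-Hochberg adjustment over all genes, 0 of the 43 passed an adjusted p of 0.05, where 0.126% of all genes tested passed. The smallest adjusted p of a proteasome gene was 0.199 (PSMG3). At an unadjusted p below 0.05 limma gave 9 proteasome genes, 8 lower and 1 higher in PKI, where 6.16% of all genes were lower and 7.53% higher at that level. Past the adjusted threshold edgeR gave 0 of 43 and DESeq2 0 of the 39 to which it gave an adjusted p (background 0.0771% and 3.88%), and at the unadjusted level they gave 16 and 15 (background 15.6% and 11.9%). The limma count at that level was 3 of 43 without inPKI A (background 8.87%), 3 without inPKI B (8.25%), 3 without a variance trend (11.5%) and 15 with median-ratio rescaling (15.7%). No proteasome gene (0 of 46) passed an adjusted p of 0.05 in the authors' deposited table, against 0.0657% of the genes with such a value, and there 1, PSME1, had an unadjusted p below 0.05 (0.0238). The 95% intervals of the log2 changes in limma reached down to -0.37 (PSME1) and up to 0.25 (PSME4).

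**Figure D1:**
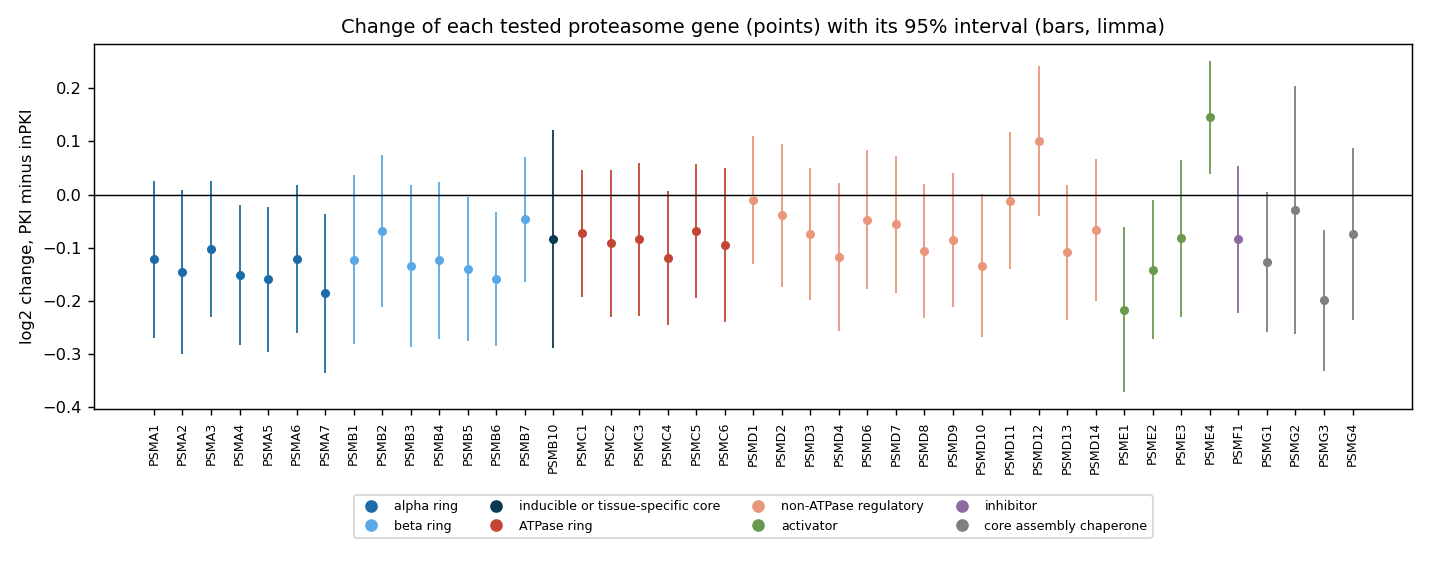
Log2 change of each of the 43 tested proteasome genes (horizontal axis, grouped by role) between PKI and inPKI (vertical axis, log2(CPM + 1) scale), as points with 95% intervals from limma. The points of 41 genes lie below 0, PSMD12 and PSME4 lie above it, and most intervals cross 0.

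The lower values were uneven among the PKI libraries. Taking each gene's log2 value relative to its inPKI mean, the median over the 43 proteasome genes was 0.015, 0.014 and -0.033 across inPKI A to C, against -0.048, -0.0043 and -0.24 across PKI A to C. For all genes tested the same medians were 0.0071, 0.025 and -0.050 in PKI A, B and C. PKI C was the lowest of the 6 libraries for 37 of the 43 genes, against 39.4% of all genes tested. It lay below every inPKI library for 40 of the 43 (45.5% of all genes), PKI A for 24 (26.5%) and PKI B for 14 (20.5%). Without PKI C the median log2 change of the proteasome genes was -0.036, with 33 of 43 below 0 (background 43.8%). Without PKI B it was -0.14, and 23 genes had an unadjusted p below 0.05 in limma with 0 past the threshold (background 17% and 0.799%). PKI C was also the shallowest library, with 17244715 reads, and the part of depth in its values was not tested.

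The alpha ring genes, whose proteins form the gated entry of the core, all had log2 changes below 0, from -0.19 to -0.10 (median -0.15), and 0 of the 7 passed the threshold. PSMA7 measured 162, 162 and 149 CPM across inPKI A to C, against 131, 156 and 129.9 across PKI A to C. PKI A and C were low and PKI B lay within the inPKI range, so the groups overlapped, and the log2 change was -0.19 with an SE of 0.0700 and an adjusted p of 0.277. PSMA5 measured 122, 117 and 112 CPM across inPKI A to C, against 108, 112 and 94.7 across PKI A to C. Its groups did not overlap, at a log2 change of -0.16 with an SE of 0.0640 and an adjusted p of 0.30. PSMA4, the alpha gene with the highest level per kilobase, measured 173, 173 and 168 CPM across inPKI A to C, against 156, 167 and 141 across PKI A to C, also without overlap, at -0.15 with an SE of 0.0617 and an adjusted p of 0.309. In all 7 genes PKI A and PKI C lay below each inPKI library, while PKI B did so in 2.

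In the beta ring all 7 constitutive genes had log2 changes below 0 (median -0.12) and 0 past the threshold. PSMB6, which encodes the caspase-like active site, measured 111, 107 and 104 CPM across inPKI A to C, against 97.8, 102 and 88.8 across PKI A to C. Every PKI library lay below every inPKI library, at a log2 change of -0.16 with an SE of 0.0594 and an adjusted p of 0.271. PSMB5, the chymotrypsin-like site, measured 129, 124 and 124 CPM across inPKI A to C, against 119.6, 121 and 102 across PKI A to C. The groups again did not overlap, and the log2 change was -0.14 with an SE of 0.0633 and an adjusted p of 0.350. PSMB7, the trypsin-like site, measured 123, 128 and 123 CPM across inPKI A to C, against 123, 126 and 114 across PKI A to C. PKI C alone was low there, with PKI A and B inside the inPKI range, and the log2 change was -0.047 with an SE of 0.0548 and an adjusted p of 0.731. PSMB4, a structural subunit and the most abundant core gene per kilobase, measured 240.0, 247 and 247 CPM across inPKI A to C, against 238, 240.0 and 198 across PKI A to C. PKI C was the low library, inPKI A and PKI B were nearly level, and the log2 change was -0.12 with an SE of 0.0693 and an adjusted p of 0.445. Groups that did not overlap, with PKI lower, were seen in 10 of the 43 tested proteasome genes, 5 of them in the core, and in 8.88% of all genes tested.

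The interferon-inducible beta subunits, which replace the 3 constitutive active sites to make the immunoproteasome, were at the edge of detection in the CPM table except for PSMB10. PSMB8, the counterpart of PSMB5, had 7, 4 and 4 reads across inPKI A to C and 3, 10 and 5 in PKI A, B and C, or 0.195 ± 0.0685 CPM under inPKI against 0.221 ± 0.111 under PKI (SD, n = 3 each). PSMB9, the counterpart of PSMB6, had 10, 11 and 7 reads in inPKI and 7, 5 and 9 in PKI. The ranges of the groups overlapped in both, and at these counts no difference was detectable (limma with no filter on low values, adjusted p = 0.907 and 0.759). PSMB10, the counterpart of PSMB7, measured 10.1, 10.9 and 9.51 CPM across inPKI A to C, against 10.4, 9.85 and 8.44 across PKI A to C, with overlap and a log2 change of -0.083 with an SE of 0.0961 and an adjusted p of 0.730. Per kilobase of transcript, PSMB10 stood at 8.35 ± 0.591 CPM in inPKI and PSMB7 at 127 ± 3.12 (SD, n = 3), so the constitutive gene was far above its inducible counterpart. Of 17 interferon-response genes fixed as a companion list, 13 were tested and 0 passed. Of the 13, 10 had a log2 change below 0 (background 52.6%) and 3 above it. The groups did not overlap in 4 that were lower in PKI (background 8.88%) and 1 that was higher (10.9%). The smallest p among them was that of B2M, the light chain of class I antigen presentation, at 92.1 ± 2.23 CPM under inPKI against 81.2 ± 4.68 under PKI (SD, n = 3 each), with an adjusted p of 0.198.

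**Figure D2:**
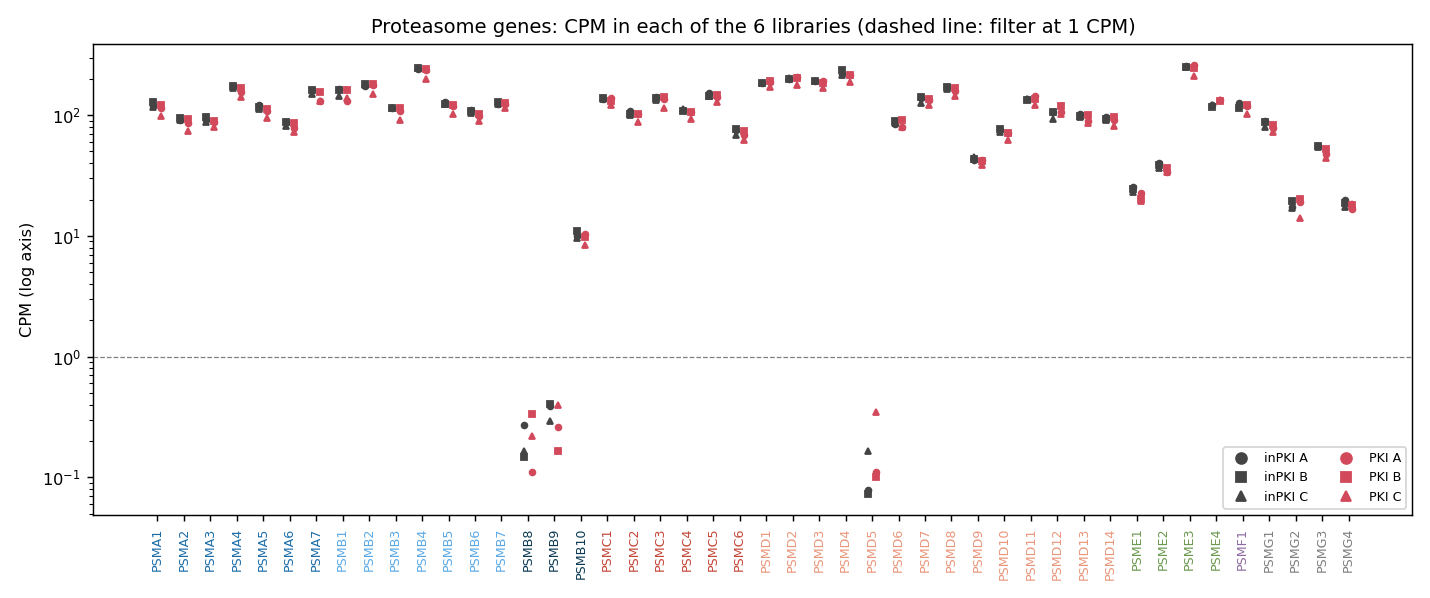
CPM of each of the 46 proteasome genes (horizontal axis, coloured by role) in each library (vertical axis, log scale), with inPKI in grey and PKI in red and a marker shape for each letter. Most genes lie near 100 CPM with the groups nearly superimposed, PSMB10 lies near 10, and PSMB8, PSMB9 and PSMD5 lie below the filter at 1 CPM.

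In the regulatory particle, 18 of 19 tested genes had a log2 change below 0 (median -0.075) and 0 passed, nor did any have an unadjusted p below 0.05 in limma. The 6 ATPase genes, whose proteins form the unfolding ring, ranged narrowly, from -0.12 to -0.069. PSMC4 measured 111, 108 and 111 CPM across inPKI A to C, against 107, 105 and 92.8 across PKI A to C. Its groups did not overlap, with PKI C lowest, and the log2 change was -0.12 with an SE of 0.0593 and an adjusted p of 0.393. PSMC2 had a log2 change of -0.092 (adjusted p = 0.550) and PSMC5, the ATPase gene with the highest level per kilobase, -0.069 (adjusted p = 0.621), both with overlap. PKI C was the lowest library for all 6 ATPase genes.

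Among the non-ATPase genes the PKA substrate PSMD11, a scaffold of the lid, had a log2 change close to 0. It measured 136, 134 and 135 CPM across inPKI A to C, against 144, 136 and 122 across PKI A to C. PKI A and B were above and PKI C below the narrow inPKI range, and the log2 change was -0.011 with an SE of 0.0605 and an adjusted p of 0.953, with a 95% interval of -0.14 to 0.12. PSMD14, the deubiquitinase that cuts the ubiquitin chain off the substrate, measured 96.6, 93.1 and 91.6 CPM across inPKI A to C, against 91.3, 96.4 and 81.3 across PKI A to C, with a log2 change of -0.067 with an SE of 0.0626 and an adjusted p of 0.656. PSMD4, a ubiquitin receptor and the regulatory gene with the highest level per kilobase, measured 221, 235 and 216 CPM across inPKI A to C, against 216, 216 and 187 across PKI A to C, with a log2 change of -0.12 with an SE of 0.0649 and an adjusted p of 0.443. PKI C was the lowest library for both, with PKI B inside the inPKI range. PSMD12, a lid subunit named after its values were seen, was the 1 regulatory gene above 0, at 105, 106 and 93.4 CPM across inPKI A to C, against 107, 118 and 102 across PKI A to C. PKI B was the highest library there, inPKI C the lowest and the groups overlapped (log2 change of 0.10 with an SE of 0.0661 and an adjusted p of 0.512). PSMD13, another lid subunit, had a log2 change of -0.11 (adjusted p = 0.437).

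PSMD5, PSMD9 and PSMD10 encode chaperones that help to assemble the base of the regulatory particle and leave it when it is complete. PSMD10 measured 74.8, 77.3 and 73.0 CPM across inPKI A to C, against 71.8, 71.7 and 61.8 across PKI A to C, with no overlap and a log2 change of -0.13 with an SE of 0.0630 and an adjusted p of 0.366. PSMD9, the tested PSMD gene with the lowest level per kilobase, had a log2 change of -0.085 (adjusted p = 0.535). PSMD5 (ENSG00000095261.13, chromosome 9, 120815496 to 120842984 in GRCh38) stood apart in the CPM table from every other regulatory gene. It had 2, 2 and 4 reads across inPKI A to C and 3, 3 and 8 in PKI A, B and C, or 0.105 ± 0.0520 CPM under inPKI against 0.187 ± 0.141 under PKI (SD, n = 3 each). Its groups overlapped, with PKI C highest, and no difference was detectable (limma with no filter, adjusted p = 0.762). The other 19 regulatory genes had means over the 6 libraries of 42.2 (PSMD9) to 215 CPM (PSMD4). The authors' deposited table, by contrast, lists PSMD5 at a baseMean (mean normalized count) of 829, against 1066 for PSMD9, and lists PSMB8 at 299 and PSMB9 at 32.6. The near absence of PSMD5, PSMB8 and PSMB9 therefore holds for the deposited CPM and not for that table, whose baseMean is also above 0 for genes at 0 in all 6 libraries, and the source of the difference was not tested.

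The core was set against the regulatory particle within each library, as the mean log2(CPM + 1) of the 14 constitutive core genes minus that of the 19 tested regulatory genes. This difference was 0.11, 0.13 and 0.10 across inPKI A to C, against 0.031, 0.088 and 0.034 across PKI A to C. All 3 PKI libraries lay below all 3 inPKI libraries, with PKI B nearest to them. The group means were 0.11 ± 0.0141 in inPKI and 0.051 ± 0.0318 in PKI (SD, n = 3 each), a shift of -0.060 on the log2 scale. In summed CPM the core stood at 0.768, 0.779 and 0.766 of the regulatory particle in inPKI A, B and C and at 0.728, 0.760 and 0.731 in PKI A, B and C. By gene, the median log2 change was -0.13 in the core and -0.075 in the regulatory particle, and 5 of 14 core genes against 0 of 19 regulatory genes had an unadjusted p below 0.05 in limma (background 13.7%). A score over chosen genes gets no p here, so the shift is given as a description.

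**Figure D3:**
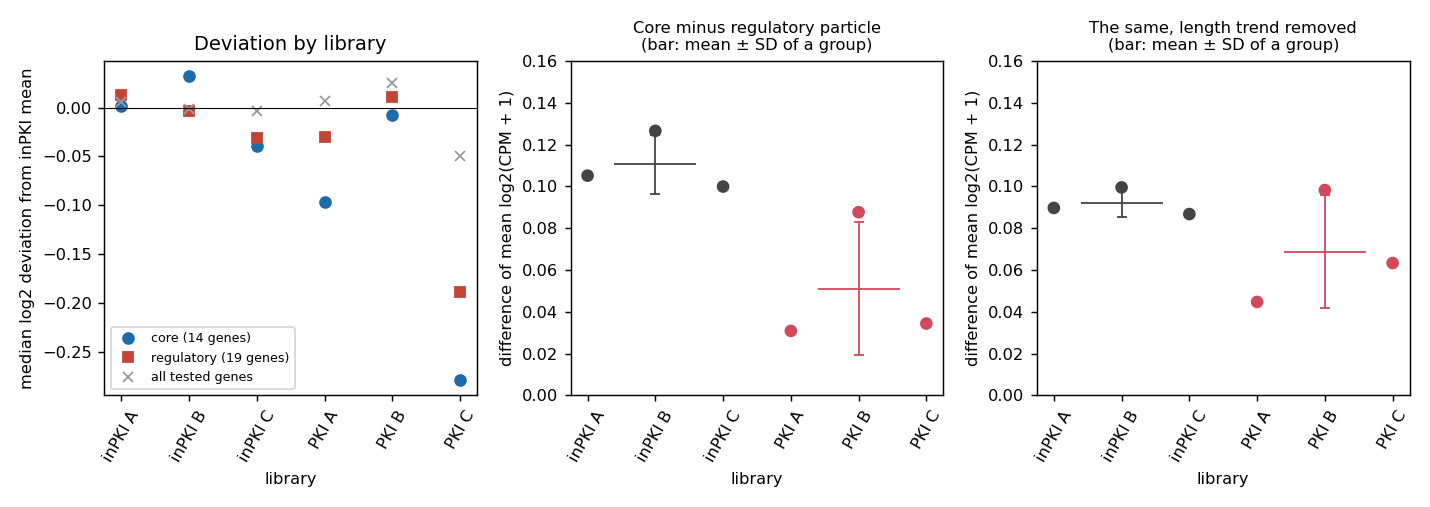
Left, median log2 deviation from the inPKI mean in each library (vertical axis) for 14 core genes, 19 regulatory genes and all tested genes. Middle and right, mean log2(CPM + 1) of the core minus that of the regulatory particle in each library, as deposited and with the trend of transcript length removed, with bars for the mean and SD of each group: the groups separate in the middle panel and overlap in the right one.

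Core transcripts are shorter than those of the regulatory particle, and the change in expression ran with transcript length. The median length was 954 bases for the core, 1590.0 for the regulatory particle and 2462 for all tested genes, taking for each gene the median of its transcripts in the basic set of GENCODE 29. Across the 43 proteasome genes the log2 change had a Pearson correlation of 0.651 and a Spearman correlation of 0.556 with log length, and across 14242 tested genes 0.306 and 0.415. These points share the same 6 libraries and genes are not independent replicates, so the correlations are descriptions. Without PSME4, the longest, they were 0.546 and 0.524 over 42 genes. The 30 proteasome genes under 2000 bases had a median log2 change of -0.12 and the 13 longer ones -0.073, and among all tested genes these medians were -0.065 and 0.020.

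With the length trend of all tested genes removed from each library, the core minus regulatory difference was 0.090, 0.099 and 0.087 across inPKI A to C, against 0.045, 0.098 and 0.063 across PKI A to C. PKI B then lay within the inPKI range, and the shift between groups was -0.023. The median log2 change over the 43 genes was -0.060 in that fit, with 37 below 0 (background 55.4%) and 2 at an unadjusted p below 0.05 in limma (background 9.01%). Within genes under 2000 bases the median was -0.13 for 12 core genes and -0.094 for 11 regulatory genes. Most of these core genes are still shorter than most of these regulatory genes, so the split cannot separate class from length. The source of the length trend, which moved with the groups, was not tested.

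**Figure D4:**
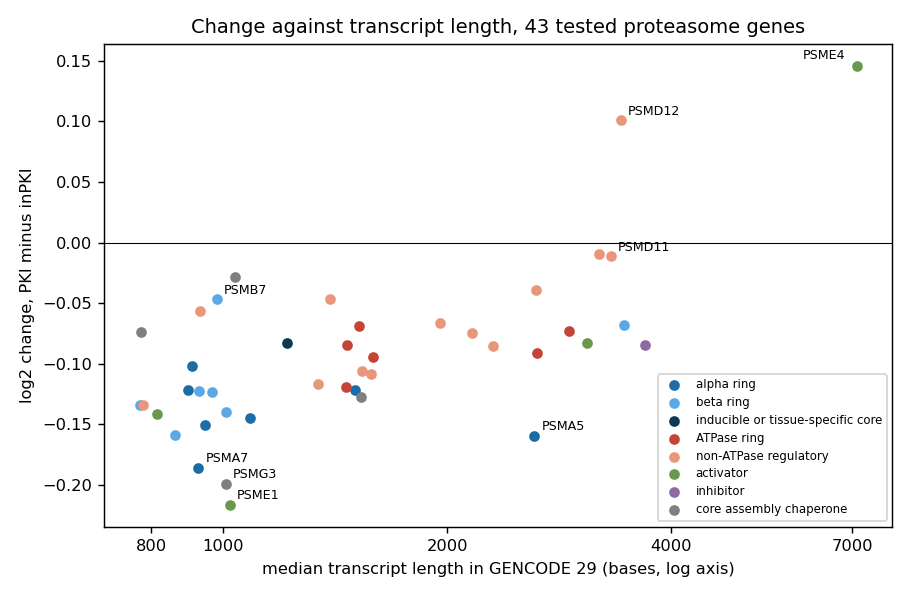
Log2 change between PKI and inPKI (vertical axis) against the median transcript length of each of the 43 tested proteasome genes (horizontal axis, bases, log scale), coloured by role. The lowest points, PSME1, PSMG3 and PSMA7, lie near 1000 bases, PSMD12 and PSME4 are the points above 0, and PSME4 is the longest.

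The activators lay on both sides of 0. PSME4, which encodes the large single-chain activator PA200, had the highest log2 change of the proteasome genes. It measured 122, 117 and 120.5 CPM across inPKI A to C, against 134, 131 and 133 across PKI A to C. Every PKI library lay above every inPKI library, the only tested proteasome gene with that order (background 10.9% of all genes), at a log2 change of 0.15 with an SE of 0.0498 and an adjusted p of 0.231. By DESeq2 the adjusted p was 0.0508, and it spanned 0.0508 to 0.784 among all alternatives, and with the length trend removed the log2 change was 0.050. PSME1, a subunit of the interferon-inducible PA28 cap, measured 25.4, 24.5 and 23.0 CPM across inPKI A to C, against 22.6, 20.3 and 19.6 across PKI A to C. Its groups did not overlap, PKI being lower, and the log2 change was -0.22 with an SE of 0.0728 and an adjusted p of 0.223. PSME2, the partner of PSME1 in that cap and named after its values were seen, measured 40.0, 38.6 and 36.2 CPM across inPKI A to C, against 33.6, 36.1 and 34.1 across PKI A to C, also without overlap (-0.14 with an SE of 0.0612 and an adjusted p of 0.329). PSME3, which forms the nuclear PA28 cap, measured 254, 249 and 252 CPM across inPKI A to C, against 258, 248 and 210.3 across PKI A to C. PKI A lay above the inPKI range, PKI B just under it and PKI C well below, and the log2 change was -0.083 with an SE of 0.0695 and an adjusted p of 0.618. PSMF1, an inhibitor of the core, had a log2 change of -0.084 with an SE of 0.0651 and an adjusted p of 0.584 at 121 ± 4.94 CPM under inPKI against 114 ± 10.2 under PKI (SD, n = 3 each).

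The promoters of the proteasome genes were searched for motifs, and those of 3 genes are shown: the lowest and highest in log2 change, and the regulatory gene nearly without reads in the CPM table. RefSeq promoter windows on GRCh38.p14, from 250 bases before to 50 after a start, matched 40 of the 46 genes in 49 windows. Shown 5′ to 3′ are those of PSME1 (chr14:24135944-24136243, plus strand), with the lowest log2 change, PSME4 (chr2:53970944-53971243, minus strand), with the highest, and PSMD5 (chr9:120842873-120843172, minus strand). The capitals mark matches to TGACNNNGC, the core of the antioxidant response element to which NFE2L1 binds, on either strand. The plan was to show the windows of the genes with the smallest p, and PSMG3, which had the smallest, had no window. PSMD5 was added after its values were seen.
PSME1: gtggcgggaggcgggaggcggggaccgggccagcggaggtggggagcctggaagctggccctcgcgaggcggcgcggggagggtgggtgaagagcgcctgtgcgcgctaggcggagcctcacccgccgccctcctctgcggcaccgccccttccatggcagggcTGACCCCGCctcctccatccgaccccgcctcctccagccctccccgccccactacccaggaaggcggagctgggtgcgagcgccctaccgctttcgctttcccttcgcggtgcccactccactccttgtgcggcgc
PSME4: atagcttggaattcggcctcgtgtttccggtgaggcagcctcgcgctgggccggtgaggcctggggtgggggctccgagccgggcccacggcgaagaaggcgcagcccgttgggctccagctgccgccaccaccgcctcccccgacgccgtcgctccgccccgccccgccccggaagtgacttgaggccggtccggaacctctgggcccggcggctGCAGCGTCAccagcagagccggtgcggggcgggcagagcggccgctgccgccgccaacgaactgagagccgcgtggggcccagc
PSMD5: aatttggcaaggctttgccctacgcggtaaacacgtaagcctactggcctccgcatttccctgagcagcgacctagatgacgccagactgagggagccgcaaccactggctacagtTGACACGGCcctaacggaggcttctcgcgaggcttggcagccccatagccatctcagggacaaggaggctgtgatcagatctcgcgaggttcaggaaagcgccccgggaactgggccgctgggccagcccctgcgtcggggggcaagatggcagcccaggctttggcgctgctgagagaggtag

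The match lies on the printed strand in PSME1 and PSMD5 and on the other strand in PSME4. TGACNNNGC was found on either strand in 15 of the 49 windows (30.6%) and in 13.3% of all 35116 windows. The windows of proteasome genes held a median of 22 CpG (C followed by G), against 14 in all windows. The part of base composition in the motif shares was not tested. The CCAAT box, searched as CCAAT on both strands, was in 19 of 49 (38.8%) and in 34.6% of all. The full cAMP response element TGACGTCA, the site of the PKA target CREB, was in 0 of 49 and in 1.85% of all. Motifs were counted independently where they overlapped, windows of 1 gene can overlap, and a match is a stretch of letters and not a measured site.

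The core assembly chaperones, which pair up to build the alpha ring, all had log2 changes below 0 and 0 of 4 passed. PSMG3 had the smallest p of any proteasome gene and measured 55.4, 55.7 and 54.3 CPM across inPKI A to C, against 47.6, 52.0 and 44.3 across PKI A to C. Every PKI library lay below every inPKI library, and the log2 change was -0.20 with an SE of 0.0621 and an adjusted p of 0.199, with an adjusted p from 0.0688 to 0.556 among the alternatives. Its partner PSMG4, named after its values were seen, had a log2 change of -0.074 (adjusted p = 0.691). PSMG1 measured 88.6, 87.7 and 79.7 CPM across inPKI A to C, against 78.6, 82.7 and 72.8 across PKI A to C, where PKI B lay inside the inPKI range, and its log2 change was -0.13 with an SE of 0.0616 and an adjusted p of 0.380. PSMG2, the partner of PSMG1, measured 17.4, 19.6 and 17.0 CPM across inPKI A to C, against 19.1, 20.2 and 14.04 across PKI A to C. PKI A and B lay in or above the inPKI range and PKI C below it, for a log2 change of -0.028 with an SE of 0.109 and an adjusted p of 0.934.

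Levels of the subunits were compared per kilobase of transcript, as mean CPM over the 6 libraries divided by the median transcript length. The levels differed between subunits of the same particle. The 14 core genes ranged from 42.4 (PSMA5) to 244 CPM per kilobase (PSMB4), a 5.76-fold range with a median of 119. The 19 regulatory genes ranged from 18.3 (PSMD9, a chaperone; the lowest of those that stay in the particle was PSMD12, at 30.7) to 160.4 (PSMD4), with a median of 61.3. The medians depend on the transcript chosen: with the shortest transcript of each gene they were 136 and 79.5, and with the longest 92.1 and 55.5, with the core above the regulatory particle in each.

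In inPKI the 3 catalytic genes stood at 125 ± 2.51 (PSMB5), 125 ± 4.15 (PSMB6) and 127 ± 3.12 CPM per kilobase (PSMB7; SD, n = 3 each), neighbours that did not differ beyond their spread over libraries. Below PSMB4 at 254 ± 4.25 came PSMA4 at 182 ± 3.23, and then PSMA7 at 171 ± 8.58, PSMB1 (named after its values were seen) at 169 ± 11.4 and PSMD4 at 167 ± 7.52, the last 3 within each other's spread. PSMC5 at 96.0 ± 3.37 and PSMC3 (named after its values were seen) at 94.0 ± 2.91 were the highest ATPases and lay within each other's spread, and PSMC2 was the lowest of them at 39.2 ± 1.43. Among the activators PSME3 was at 81.7 ± 0.877, PSME1 at 23.8 ± 1.17 and PSME4 at 16.9 ± 0.370. Of the chaperones PSMG1 was at 55.7 ± 3.22 and PSMG2 at 17.3 ± 1.37, the latter level with PSME4 within the spread. The SD covers the libraries and not the choice of transcript, on which the order depends. Over the 6 libraries PSMB5 stood at 165 with its shortest transcript and at 92.7 with its longest. PSMB6 stood at 119 and 117, and PSMB7 at 125 with either. With the shortest transcripts the highest gene was PSMA4 in the core, PSMC3 among the ATPases and PSMD8 in the regulatory particle. With the longest it was PSMA7 among the alpha genes.

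Genes that work with the proteasome but lie outside the PSM names were read from 4 companion lists with 49 tested genes in all, and 0 passed in limma (background 0.126%), with 6 of the 49 at an unadjusted p below 0.05, where 13.7% of all genes tested lay below it. Of 12 tested subunits and partners of the particle in the first list 7 had a log2 change below 0 and 5 above it. As they lie outside the PSM names, none of them was counted in the regulatory particle above. The smallest p was that of KIAA0368, which encodes the proteasome adaptor ECM29, at 108 ± 1.52 CPM under inPKI against 119 ± 4.18 under PKI (SD, n = 3 each), a log2 change of 0.13 with an SE of 0.0513 and an adjusted p of 0.289. Its transcript is long, 7234 bases at the median. That of TXNL1 in the same list is 4116.5 bases, with a log2 change of -0.16. The part of length in these values was not tested. Of 10 genes that control proteasome expression, 0 passed and 7 were above 0. DDI2, the protease that activates NFE2L1, had the smallest p there (log2 change 0.099 with an SE of 0.0529 and an adjusted p of 0.429). The DDI2 transcript is long too, 10625 bases at the median, and that of NFE2L1 is 4390 bases, with a log2 change of -0.054. NFE2L1 itself measured 153 ± 5.14 CPM under inPKI against 148 ± 6.09 under PKI (SD, n = 3 each).

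Of 14 genes for ubiquitin, its activating enzymes and shuttle proteins, 11 were below 0 and 0 passed in limma. The smallest p was that of RPS27A, a fusion of ubiquitin with a ribosomal protein. It measured 659, 682 and 595 CPM across inPKI A to C, against 509, 589 and 491 across PKI A to C. The log2 change was -0.29 with an SE of 0.0792 and an adjusted p of 0.162. The RPS27A transcript is short, 750.5 bases at the median. That of NPLOC4 in the same list is 946 bases, with a log2 change of 0.054. RPS27A passed by DESeq2 (adjusted p = 0.000462), in limma with sample weights (0.0412, background 1.01%) and in limma without PKI B (0.0410), and its adjusted p spanned 0.000462 to 0.554 among the alternatives. B2M of the interferon list passed by DESeq2 (0.0459), with a span of 0.0459 to 0.558.

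Some proteasome genes have processed copies in the genome whose reads the counting could exchange with theirs. The table held 25 rows named as pseudogenes of 10 of the 46 genes. Their mean levels over the 6 libraries summed to 6.11 CPM. The 10 copies of PSMC1 summed to 2.93% of its level, and those of PSME2 and PSMA6 to 1.57% and 1.49%. For the other 7 parents, PSMD4, PSMD7, PSMD8, PSMD10, PSMD12, PSMA2 and PSMB3, the copies came to at most 0.110%. The values of all 10 parents are uncertain, and reads already exchanged with a copy were not measured.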

How the data were processed

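RNA-seq libraries of 3 PKI and 3 inPKI samples were analysed. The submitters' processing notes list hg19, DESeq2 1.20.0, RSEM 1.3.0, STAR 2.5.2b and cutadapt 1.14 without roles or settings. The authors deposited CPM, and the table's name gives RSEM and TMM, read here as TMM-scaled RSEM estimates. All values (100%, tolerance 0.01 reads) were whole multiples of the column's smallest value (0.0333 to 0.0437 CPM), and whole reads were recovered by that division. Counting error is the least error of a value, and PCR duplicates cannot be told apart. The authors' deposited comparison table holds, per the file headers, a signed fold change and its log2 form with an error, the p-value before and after adjustment, a Wald score and baseMean, a mean signal. Its log2 sign is opposite to PKI over inPKI and was turned. In 2069 genes at 0 in all 6 libraries its baseMean is above 0, so it does not rest on these values alone. The libraries or counting behind it are not given in the sources used here.

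Genes with at least 1 CPM in at least 3 libraries were tested on log2(CPM + 1), which understates changes of low genes, in R 4.3.3 by limma 3.58.1, whose moderated 2-sided test used a mean-variance trend and a threshold of 0.05. Alternatives were pseudocounts of 0.25 and 5, no filter, a 5 CPM filter, median-ratio and equal-sum rescaling, a replicate block, no trend, sample weights, edgeR 4.0.16, DESeq2 1.42.0, removal of length and GC trends (lowess, span 0.3) and leaving out each library. The tests were tried on simulated counts with changes larger than any estimated for a proteasome gene. That trial does not cover changes as small as those seen here. With 3 against 3 an exact permutation test cannot go below 0.1.

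The members and lists were chosen with earlier results of these data known. Named are PSMB5 to PSMB10, PSMD4, PSMD11, PSMD14, PSMF1 and PSME4, in each family the 2 smallest p and the highest and lowest level per kilobase, untested members, any called, and the smallest p of each companion list. Positions and lengths come from GENCODE 29 on GRCh38 by gene identifier, not from the hg19 build that the notes list. Protein sequences were not used here. Figures were drawn with matplotlib 3.10.9.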

Additional observations from a re-analysis of the deposited data

How the results depend on the processing

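The count of proteasome genes past the threshold was 0 in all 20 alternatives. Their median log2 change stayed below 0 in each, from -0.14 (without PKI B) to -0.036 (without PKI C). The median of all genes moved by at most 0.021 in any alternative. The number at an unadjusted p below 0.05 was 9 as reported and ranged from 2 (length trend removed) to 23 (without PKI B). It was 3 when inPKI A or inPKI B was left out and in limma without a trend, and 15 to 16 with median-ratio rescaling, the replicate block, edgeR and DESeq2. The share of all genes at that level was 13.7% as reported, 9.01% and 17.0% at those ends, and 16.1% with the block. The core minus regulatory shift, -0.060 as reported, was -0.023 with the length trend removed and -0.023 with length and GC removed, and -0.078 to -0.049 with 1 library left out. Companion genes past the threshold were 0 as reported, 2 by DESeq2 (RPS27A and B2M), 1 with sample weights and 0 to 1 with 1 library left out (RPS27A in each). The replicate block gave 0 proteasome genes and 1 companion gene (RPS27A, adjusted p = 0.0426). The labels do not state whether a shared letter pairs libraries. Same-letter correlations of deviations were 0.0138 to 0.0283, and those of different letters -0.022 to 0.010. The block gave 124 genes in all against 18, and whether the letters mark a pairing was not tested.

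Of 477 values of 24 named genes over the alternatives, 466 kept their direction and side of the threshold and 11 changed sign, none of them called. With the length trend removed PSMB7 was at 0.023 and PSMG2 at 0.038, and with length and GC removed at 0.026 and 0.034. With sample weights PSMD11 was at 0.039 and PSMG2 at 0.069. With 1 library left out PSMD11 spanned -0.063 to 0.054, PSMD14 -0.12 to 0.0012, PSME3 -0.14 to 0.0059 and PSMG2 -0.12 to 0.12. Without PKI C PSMD11 was at 0.054, PSMD14 at 0.0012, PSME3 at 0.0059 and PSMG2 at 0.12, and without inPKI B PSMG2 was at 0.032. The causes were not tested. PSMB8, PSMB9 and PSMD5 had 2 to 11 reads per library, which limits what could be detected, and the source of these low counts was not tested.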

Other observations

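Antisense genes at proteasome loci are not among the 46 genes and were read separately, after their values were seen. PSMD6-AS2 had 14, 18 and 8 reads across inPKI A to C and 27, 44 and 39 across PKI A to C, or 0.511 ± 0.166 and 1.39 ± 0.360 CPM (SD, n = 3 each). Every PKI library lay above every inPKI library, an order that 10.9% of all tested genes had. PSMD6-AS2 was itself under the filter, and in limma with no filter on low values it did not pass (adjusted p = 0.359). The partner gene PSMD6 had a log2 change of -0.047 (adjusted p = 0.762). PSMA3-AS1 measured 15.2, 15.5 and 14.2 CPM in inPKI A, B and C and 15.1, 16.6 and 21.8 CPM in PKI A, B and C, so PKI C, the library lowest for PSMA3, was the highest for its antisense gene. The groups of PSMA3-AS1 overlapped, with an adjusted p of 0.603 in limma with no filter on low values. PSMD5-AS1 had 1, 0 and 1 reads in inPKI and 2, 4 and 4 in PKI, as near to 0 in the CPM table as PSMD5 itself. PSMG3-AS1 was slightly lower in PKI, at 1.97 ± 0.188 CPM in inPKI and 1.87 ± 0.146 in PKI (SD, n = 3 each). PSMB8-AS1 and PSMD6-AS1 had at most 9 reads in a library. The sources used here do not say whether counting used strand, so reads of a gene and its antisense partner cannot be told apart.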
